A study of Homo sapiens with 78 samples.

Results

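The 8 reference genes SDHA, TBP, YWHAZ, HPRT1, GAPDH, ACTB, PPIA and GUSB were examined in single A375 and Jurkat cells to see which of them held steady from cell to cell. They were chosen by name from the 58388 genes annotated on the human genome, and the choice used no threshold on a measured value, but earlier results of these data were known when it was made. The estimated counts and the TPM (the transcript share per 1000000 transcripts, which corrects for transcript length) of all transcripts of a gene were summed in each well.

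A375 is a human melanoma cell line and Jurkat is a human T cell leukemia line. Single live cells were sorted by FACS, A375 by CD47 staining and Jurkat by CD81 staining, and total RNA was made into stranded libraries with 1 of 2 kits. Kit #634413 is the SMARTer Pico Input Mammalian kit for stranded total RNA (v2), and kit #634444 is the SMART-Seq Stranded Kit. No drug or genetic change was applied to any group. Tubes held PBS for A375 cells but a lysis solution for Jurkat cells, so the cell line and the buffer cannot be told apart in any comparison of the lines. For each kit, 21 A375 wells and 18 Jurkat wells were deposited. Wells with a total of at least 200000 estimated counts were used, which were 17 A375 wells with kit #634413, 16 A375 wells with kit #634444 and 18 Jurkat wells with each kit, 69 of 78 in all. Each well holds 1 cell and the labels name no separate cultures, so each of the 4 groups is 1 sample. Differences between groups therefore had no replicate check and were not tested, and every SD and coefficient of variation (CV, the SD over the mean) is the spread between cells.

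Reference genes are genes whose transcript is taken to be present at a similar level in every cell, and they are used to correct RT-qPCR values for the amount of input RNA. They come from unrelated parts of cell metabolism so that 1 regulated pathway does not move them all. In a single cell, a transcript is made in bursts and only a part of its copies is captured, so a low gene can be missing from a cell that expresses it.

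The study normalized its RT-qPCR measurements, which were made on bulk RNA of another cell line, with the 4 genes SDHA, YWHAZ, TBP and HPRT1. The primers of 3 of these assays are shown since they mark the part of the transcript on which that normalization rested. Positions are on GRCh38, all on the plus strand, and exons are counted in the MANE Select transcript of each gene, the main transcript agreed between annotations, in GENCODE v44. The SDHA primers lay in exon 2 (chr5:223532-223551) and exon 3 (chr5:224387-224408) and enclosed 86 bases of the transcript. The TBP primers lay in exon 5 (chr6:170566952-170566971) and exon 6 (chr6:170569621-170569642) and enclosed 89 bases. The HPRT1 forward primer lay in exon 6 (chrX:134493516-134493536), the reverse primer spanned the junction of exons 6 and 7 (chrX:134493589-134498408, intron included), and the product was 94 bases long. Capitals mark the bases of the HPRT1 reverse primer that pair with exon 7.
SDHA forward: tgggaacaagagggcatctg
SDHA reverse: ccaccactgcatcaaattcatg
TBP forward: cacgaaccacggcactgatt
TBP reverse: ttttcttgctgccagtctggac
HPRT1 forward: tgacactggcaaaacaatgca
HPRT1 reverse: GGTCCTTTTCACCAGCAAGct

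The wells used held between 231540 and 2567265 estimated counts, with group medians between 755639 and 926941. Melanoma line markers held more counts than T cell markers in 33 of 33 A375 wells, and T cell markers held more in 36 of 36 Jurkat wells. Of 10 markers each, the T cell list had counts on 4 and 6 genes in A375 with kits #634413 and #634444, with up to 40.4 CPM summed over the list in a well, against 1133 to 3083 CPM in Jurkat. Summed melanoma line markers lay between 115 and 3386 CPM in A375 wells and between 0 and 71.5 CPM in Jurkat wells. All 10 T cell genes were at least 2-fold lower in A375 with either kit, and all 8 and 9 melanoma line genes tested with kits #634413 and #634444 were at least 2-fold higher. CPM stands for estimated counts of a gene per 1000000 estimated counts of the well. In A375, 3 wells stood apart. Well 8 of kit #634413 had 4.84% of its counts on protein coding genes and well 11 had 10.5%, and well 10 of kit #634444 had 44.4%, while all other wells had at least 62.2%. The rDNA repeat unit took 53.4%, 48.5% and 25% of the counts of these 3 wells. The main A375 values that turn on them are given with and without them (n = 15 wells with each kit without them).

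For ACTB, the MANE Select transcript of GENCODE v44 was not among the targets by identifier. Only 12 minor transcripts could be assigned to the gene. An older transcript that may stand for the main one may be among the 4356 targets without a match, which were assigned to no gene. Of the counts assigned to ACTB, the largest share, 54.1%, was on ACTB-203, which is annotated as subject to nonsense-mediated decay. ACTB values below are those of the minor transcripts and do not give the level of the gene. The other 7 genes had their MANE Select transcript among the targets.

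GAPDH was the highest of the 7 genes other than ACTB in every group, and PPIA and YWHAZ followed. GAPDH (chr12:6534512-6538374, plus strand) encodes the glycolytic enzyme glyceraldehyde-3-phosphate dehydrogenase. On the TPM scale, which corrects for length, GAPDH had a mean of 747 ± 371 (SD, n = 17) in A375 with kit #634413, 901 ± 618 (n = 16) with kit #634444, and 1974 ± 630 and 1638 ± 661 (n = 18 each) in Jurkat. PPIA had means of 452, 504, 775 and 878 TPM in the same order and YWHAZ means of 255, 284, 331 and 398 TPM. The ranges of neighbours overlapped, but GAPDH was above PPIA in 15 of 17, 15 of 16, 18 of 18 and 17 of 18 wells. PPIA was above YWHAZ in 14 of 17, 14 of 16, 18 of 18 and 18 of 18 wells. The remaining genes, SDHA, HPRT1, GUSB, TBP and the minor ACTB transcripts, had means between 13.7 and 222 TPM with overlapping ranges. Among SDHA, HPRT1, GUSB and TBP, means lay between 13.7 and 74.6 TPM, and neighbours in the order differed by less than the spread between cells.

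**Figure D1:**
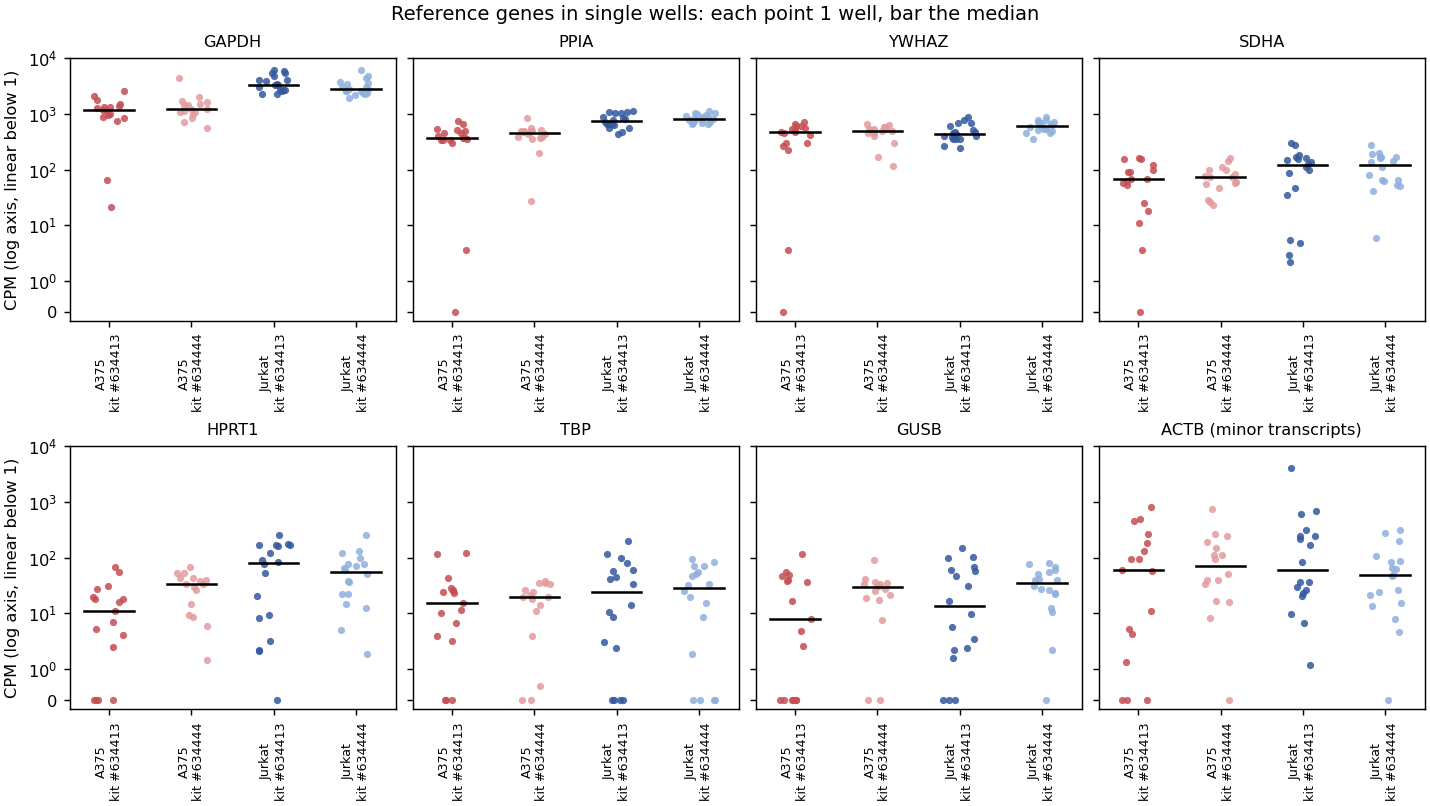
Level of the 8 reference genes in every well used, in CPM on a log axis that is linear below 1, by cell line and kit. Points are wells and bars are group medians. GAPDH, PPIA and YWHAZ form narrow bands in Jurkat, whereas SDHA, TBP, HPRT1 and GUSB run down to or near 0.

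PPIA (chr7:44796680-44824564, plus strand) encodes cyclophilin A, a peptidyl-prolyl isomerase that helps proteins fold. It had the lowest CV of CPM of the 8 in 3 groups and the second lowest in A375 with kit #634444. On the TPM scale it had the lowest CV with kit #634444 only, 0.368 in A375 and 0.160 in Jurkat. In Jurkat with kit #634444, PPIA ranged from 648 to 1106 CPM around a median of 809 (CV 0.171, n = 18), and with kit #634413 from 440 to 1114 around 745 (CV 0.288, n = 18). In A375, it ranged from 0 to 756 CPM around 374 with kit #634413 (CV 0.486, n = 17) and from 27.7 to 838 around 454 with kit #634444 (CV 0.394, n = 16). The lowest A375 wells were those with few protein coding counts. Without them the lowest values were 301 and 199 CPM and the CVs 0.292 and 0.297.

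YWHAZ (chr8:100916523-100953388, minus strand) encodes an adaptor protein of the YWHA family that binds phosphorylated partners. It was nearly as steady as PPIA. It ranged from 355 to 871 CPM around a median of 601 in Jurkat with kit #634444 (CV 0.220) and from 243 to 883 around 439 with kit #634413 (CV 0.361). In A375, it ranged from 0 to 721 CPM around 465 (CV 0.499) and from 118 to 658 around 500 (CV 0.328) with kits #634413 and #634444. Without the 3 wells of few protein coding counts, no A375 well was under 168 CPM and the CVs were 0.311 and 0.258.

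GAPDH had high counts in nearly every cell, and its CV of CPM was not the lowest of the 8 in any group. On the TPM scale its CV was the lowest with kit #634413, 0.496 in A375 (PPIA 0.520) and 0.319 in Jurkat (PPIA 0.354). In A375 with this kit but without the wells of few protein coding counts, it was 0.328, beside 0.317 for YWHAZ. Scaled to protein coding counts, GAPDH also had the lowest CV in A375 with kit #634413. It ranged from 1957 to 6002 CPM around a median of 2831 in Jurkat with kit #634444 (CV 0.336) and from 2269 to 6119 around 3355 with kit #634413 (CV 0.335). In A375, it ranged from 21.5 to 2536 CPM around 1176 with kit #634413 (CV 0.529) and from 559 to 4387 around 1230 with kit #634444 (CV 0.609). Only the 2 wells of fewest protein coding counts held under 100 CPM of it, 64.8 and 21.5 CPM in wells 8 and 11, and the CV was 0.366 without them. The CV in A375 with kit #634444 turned on 1 cell, well 20 with 4387 CPM, and was 0.313 without it.

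SDHA (chr5:218303-257082, plus strand) encodes the flavoprotein subunit of succinate dehydrogenase, an enzyme of the citric acid cycle and the respiratory chain. It was found in 68 of 69 cells, but at widely different levels. In Jurkat with kit #634413, SDHA ranged from 2.23 to 294 CPM around a median of 119 (CV 0.775), and 4 of 18 cells had under 10 counts of it. With kit #634444, it ranged from 5.89 to 278 around 122 in Jurkat (CV 0.594) and from 22.9 to 159 around 72.8 in A375 (CV 0.517). A375 cells with kit #634413 ran from 0 to 164 CPM around 67.1 (CV 0.731), and from 10.9 CPM upward without the wells of few protein coding counts (CV 0.598).

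HPRT1 (chrX:134460165-134520513, plus strand) encodes the purine salvage enzyme hypoxanthine phosphoribosyltransferase. Its level differed widely between cells of every group. In Jurkat, HPRT1 ranged from 0 to 258 CPM around a median of 79.3 with kit #634413 (CV 0.926) and from 1.90 to 254 around 56.1 with kit #634444 (CV 0.945). In A375, it ranged from 0 to 67.6 CPM around 11 (CV 1.17) and from 1.5 to 67.7 around 33.3 (CV 0.612). The A375 and Jurkat ranges overlapped with both kits.

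TBP (chr6:170554302-170572870, plus strand) encodes the TATA-box binding protein of the general transcription factor TFIID. It was absent from some cells in every group. The median was 15.5 CPM in A375 (range 0 to 120, CV 1.35) and 24.2 in Jurkat (0 to 199, CV 1.25) with kit #634413. With kit #634444 the median was 19.6 in A375 (0 to 37.8, CV 0.695) and 28.7 in Jurkat (0 to 95.7, CV 0.925).

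GUSB (chr7:65960684-65982215, minus strand) encodes beta-glucuronidase, a lysosomal enzyme that degrades glycosaminoglycans. It was lower still in the median cell with kit #634413, at 7.79 CPM in A375 (range 0 to 117, CV 1.30) and 13.3 in Jurkat (0 to 149, CV 1.22). With kit #634444, the medians were 29.2 CPM (0 to 89.6, CV 0.735) and 35.3 CPM (0 to 79.5, CV 0.653).

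The minor transcripts of ACTB (chr7:5526409-5563902, minus strand), the gene of the cytoskeletal protein beta-actin, had medians of 60.8 and 71.8 CPM in A375 and 60.1 and 48.6 CPM in Jurkat with kits #634413 and #634444. Their CVs were 1.45, 1.38, 2.50 and 1.19, the highest of the 8 in every group. Single cells weighed heavily on them. Well 18 of Jurkat with kit #634413 held 4117 CPM, against 698 CPM in the next cell, and without it the CV of that group was 1.30. In A375 with kit #634444, well 10, with few protein coding counts, held 741 CPM, and the CV was 0.951 without it.

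Dropout, taken as under 1 estimated count of a gene in a well, fell mostly on TBP, GUSB, HPRT1 and the minor transcripts of ACTB. GAPDH had a count in 69 of 69 cells. Taking 3 cells as the limit that a count of 0 allows, its 0 of 18 Jurkat cells in each group allowed a share of up to 16.7%, and 0 of 17 and 0 of 16 A375 cells 17.6% and 18.8%. The exact binomial upper limits were 18.5%, 19.5% and 20.6%. PPIA, YWHAZ and SDHA were missing only from well 8 of A375 with kit #634413, the well with 4.84% protein coding counts. TBP was missing from 3 of 17 and 3 of 16 A375 cells (17.6%, exact binomial interval 3.80 to 43.4%, and 18.8%, 4.05 to 45.6%), 1 of 15 (6.67%) with kit #634413 without the wells of few protein coding counts, and from 4 of 18 Jurkat cells with each kit (22.2%, 6.41 to 47.6%). GUSB was missing from 6 of 17 A375 cells with kit #634413 (35.3%, 14.2 to 61.7%) and from 2 of 16 with kit #634444 (4 of 15 and 1 of 15 without the wells of few protein coding counts). In Jurkat it was missing from 3 and 1 of 18 cells. HPRT1 was missing from 4 of 17 (2 of 15, 13.3%, without those wells) and 0 of 16 A375 cells and from 1 and 0 of 18 Jurkat cells. ACTB minor transcripts were missing from 4 of 17, 1 of 16, 0 of 18 and 1 of 18 cells. These intervals have a confidence level of 95% and cover counting error only.

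Depth moved with dropout in some groups. In A375 with kit #634413, 5 of the 6 cells without GUSB and 3 of the 4 without HPRT1 had fewer counts than the median well, 844946. Both sets included wells 8 and 11, which had few protein coding counts. In Jurkat, 3 of the 4 cells without TBP were below the median total with each kit, but only 1 of the 3 cells without GUSB was with kit #634413. A Jurkat well with 1103914 counts still had no TBP count, and neither did A375 well 14 of kit #634413, with 2220562 counts. The part of depth in dropout was not tested. If 200000 counts were drawn from every well, 4.23, 3.34, 5.33 and 4.80 cells without TBP would be expected in the 4 groups, and 2.23 in the first without the wells of few protein coding counts.

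Of the 8 genes, 1 had a count in every cell of A375 with kit #634413 (4 without the wells of few protein coding counts), where 7.05% of all genes with a mean of at least 10 CPM did. In A375 with kit #634444, 5 of the 8 did against 51.5% of all such genes. In Jurkat, 5 of 8 did with each kit, against 20.4% of all genes with kit #634413 and 37.9% with kit #634444. All 8 were seen together in 8 of 17, 10 of 16, 11 of 18 and 13 of 18 cells. The 4 genes that the study used for RT-qPCR of bulk RNA were all seen in 12, 13, 13 and 14 cells. All 4 had at least 10 counts in only 6, 7, 8 and 10 cells.

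**Figure D2:**
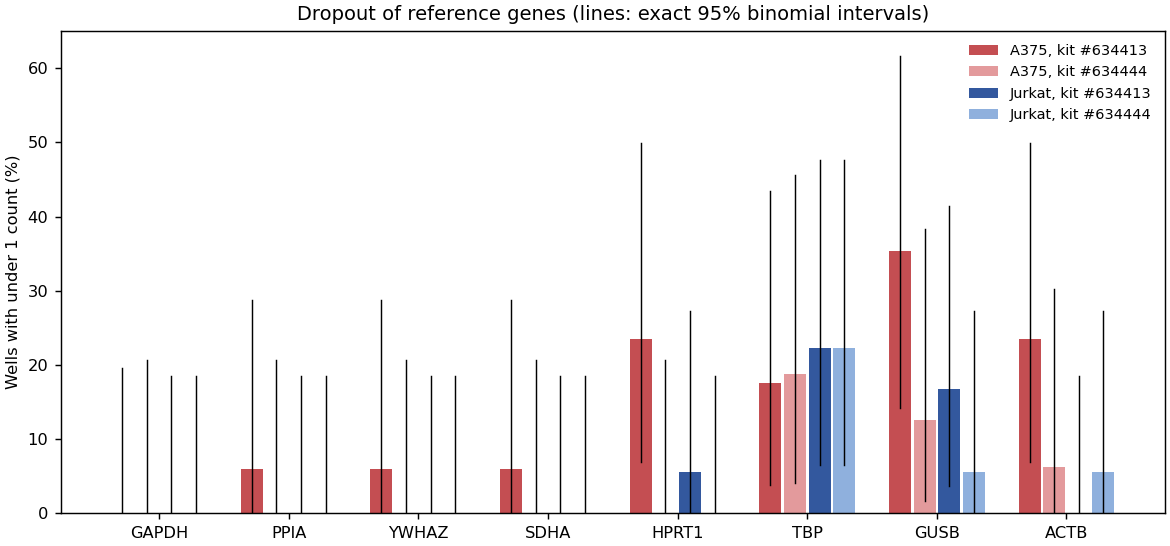
Share of cells without a count of each reference gene, in percent of the wells used, by cell line and kit, with exact binomial 95% intervals as error bars. GAPDH is at 0 in all 4 groups, and TBP is between 17.6% and 22.2% in all 4.

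Since low genes vary more, in part through counting, each CV was set against the trend of CV on mean CPM over all genes of at least 1 CPM in the same group. The trend is not counting error alone. For each of the 8 genes, the CV that random (Poisson) counting alone would give was below both its CV and the trend. It was highest for HPRT1 in A375 with kit #634413, at 0.295, beside a CV of 1.17 and a trend of 1.25. PPIA lay below the trend in Jurkat, by 0.79 on the log2 scale with kit #634444 (CV 0.171, trend 0.296) and by 0.39 with kit #634413 (0.288, trend 0.377). Only 2.26% and 12% of genes lay lower relative to the trend. YWHAZ lay at the 5.67th and 18.4th percentile in Jurkat. In A375, PPIA and YWHAZ were near the trend, between the 33.7th and 60.7th percentile, and between the 18.3rd and 40.2nd without the wells of few protein coding counts.

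GAPDH lay above the trend in all 4 groups, at the 77.1st, 96.7th, 95.6th and 96.5th percentile, but in A375 with kit #634444 this rested on 1 cell. Without well 20, the CV there was 0.313 beside 0.324 on the trend fitted again, at the 45.4th percentile. In Jurkat its CVs of 0.335 and 0.336 compared with 0.225 and 0.209 on the trend. SDHA lay between the 48.3rd and 59.5th percentile and followed the trend closely. HPRT1 ranged from the 26.3rd to the 88.7th, TBP from the 16.2nd to the 86.2nd, and GUSB from the 10.6th to the 78.2nd percentile, with no group order that they shared. ACTB minor transcripts were at or above the 98.3rd percentile everywhere.

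**Figure D3:**
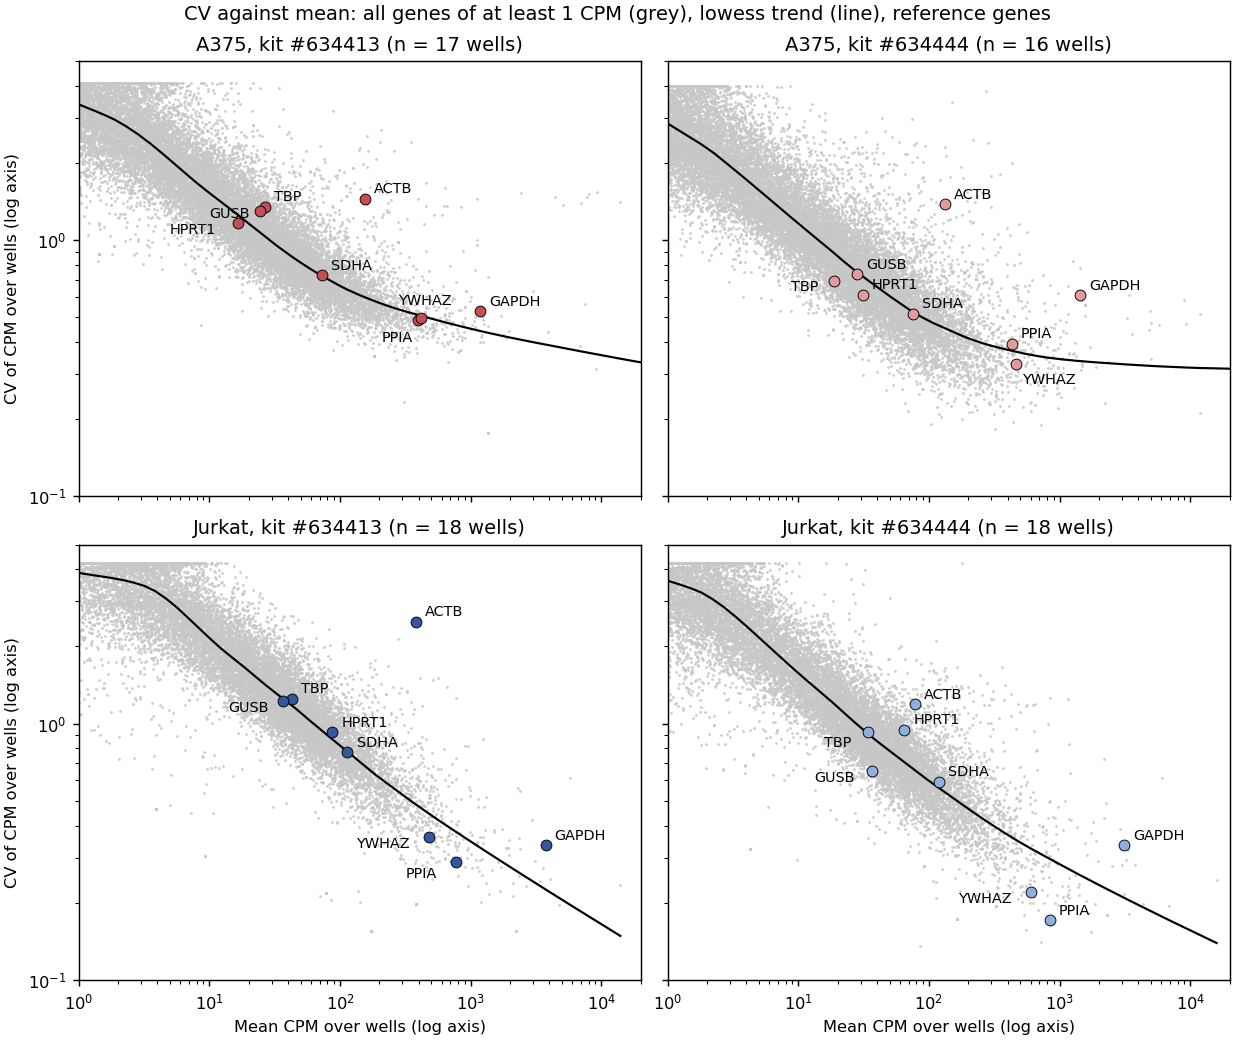
CV over wells against mean CPM, both on log axes, for all genes of at least 1 CPM (grey) with the lowess trend (line) and the 8 reference genes (coloured points), 1 panel per cell line and kit. PPIA and YWHAZ sit below the line in both Jurkat panels, GAPDH sits above the line in all 4 panels (in A375 with kit #634444 through well 20 alone), and ACTB, here its minor transcripts, sits far above it.

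The pairwise stability measure M is the mean SD over wells of the log2 ratio of a gene to each of the other 7, on counts + 0.5. Apart from this added 0.5, M does not depend on how a well is scaled. In wells with 0 or few counts of a gene, the ratio does depend on the 0.5 and on depth. GAPDH, YWHAZ and PPIA had M values between 1.46 and 2.21 in the 4 groups, the 3 lowest except in A375 with kit #634444. There SDHA (1.58) came before PPIA (1.64), but after it without well 10 (SDHA 1.51, PPIA 1.4). In the other 3 groups SDHA had 2.17, 3.08 and 1.89. TBP had M values of 3.17, 2.47, 3.51 and 2.94, GUSB of 3.11, 2.31, 3.54 and 2.28, and HPRT1 of 2.64, 2.07, 3.40 and 2.07. When the least stable gene was left out step by step, PPIA and YWHAZ were the last pair in all 4 groups, with an SD of their log2 ratio of 0.40, 0.68, 0.45 and 0.32. GAPDH was left out just before them at M of 1.0, 0.87, 0.75 and 0.58, and SDHA before GAPDH. Without the wells of few protein coding counts, the last pair was the same in A375, with 0.42 and 0.48, and GAPDH left at 0.58 and 0.74. PPIA and YWHAZ also moved together across cells. Without the wells of few protein coding counts, their Pearson r on log2(CPM + 1) was 0.57, 0.47, 0.54 and 0.40 (n = 15, 15, 18 and 18 cells), the only pair of the 8 with a positive r in all 4 groups. These points share their library and depth, and the r is a description.

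**Figure D4:**
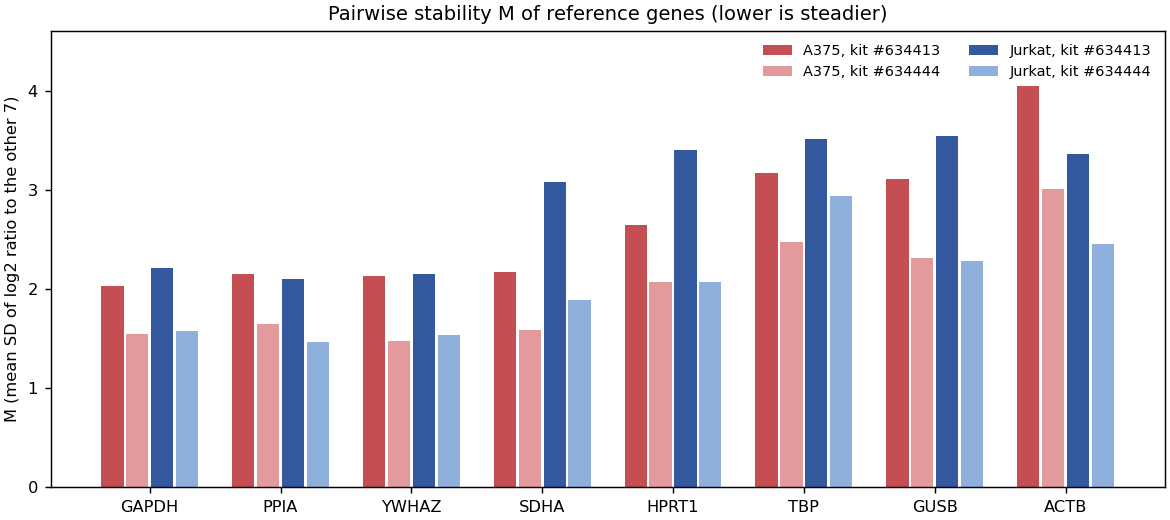
Pairwise stability M of each reference gene, in log2 units, by cell line and kit, where a lower bar is a steadier gene. GAPDH, PPIA and YWHAZ have low bars, joined by SDHA in A375, and TBP, GUSB and ACTB, here its minor transcripts, have high bars in every group.

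A normalization factor made from SDHA, TBP, YWHAZ and HPRT1 differed widely between cells. The study used these 4 genes on bulk RNA, so their spread between single cells does not measure its normalization. The SD of the log2 geometric mean of these 4 genes was 1.49 and 0.72 in A375 and 1.18 and 0.80 in Jurkat with kits #634413 and #634444. In Jurkat, the cell with the highest factor had 23.3 times that of the lowest with kit #634413 and 6.06 times with kit #634444. The geometric mean of GAPDH, PPIA and YWHAZ had an SD of 0.27 and 0.18 in Jurkat, with 2.04 and 1.51 times between the highest and the lowest cell. In A375, the SD of that factor was 2.13 and 0.68, and 0.34 and 0.34 without the wells of few protein coding counts, against 0.60 and 0.71 for the 4 RT-qPCR genes in the same wells. The second set was put together with the CVs above already known, so its lower SD is a description. All of these spreads are relative to the total of the well. No spike-in served to count molecules, so fewer transcripts of 1 gene and more of all others cannot be told apart.

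Between the cell lines, GAPDH and HPRT1 were lower in A375 with both kits. With kit #634413, 51.1% of 11315 genes tested differed at least 2-fold between the lines and 25.7% were at least 2-fold lower in A375. Of the 8 reference genes 3 were, HPRT1 by a log2 ratio of -2.32, GAPDH by -1.67 and the ACTB minor transcripts by -1.28. With kit #634444, 46.8% of 11454 genes differed at least 2-fold and 21.4% were lower in A375, and 2 of the 8 were, GAPDH by -1.13 and HPRT1 by -1.03. None of the 8 was at least 2-fold higher in A375. Without the wells of few protein coding counts, GAPDH had -1.49 and -1.07 and HPRT1 -2.15 and -1.06 with kits #634413 and #634444. The ACTB minor transcripts then had -1.11 with kit #634413. The shares for the 8 genes, with so few members, are close to those over all genes.

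GAPDH means were 1177 ± 623 and 1431 ± 872 CPM in A375 and 3744 ± 1253 and 3136 ± 1054 CPM in Jurkat (SD over cells). Of the A375 cells, 16 of 17 and 14 of 16 were below the lowest Jurkat cell of the same kit. The HPRT1 means were 16.6 ± 19.5 and 31.2 ± 19.1 CPM in A375 and 87.3 ± 80.8 and 64.6 ± 61 CPM in Jurkat, and there only 0 and 1 A375 cells were below every Jurkat cell. Counts of HPRT1 summed over a group gave 31.4 CPM (exact Poisson interval 28.6 to 34.4) in A375 and 63.9 CPM (59.8 to 68.1) in Jurkat with kit #634444, counting error only. For this kit the HPRT1 ratio lay between -1.14 and -0.76 when 1 cell at a time was left out, and it fell short of 2-fold without any 1 of 9 cells (A375 wells 3, 14, 15, 16 and 19, Jurkat wells 2, 5, 6 and 15). The ACTB ratio of the minor transcripts with kit #634413 rested on well 18 of Jurkat and was -0.05 without it. With kit #634444 it was 0.75, 1.04 without well 3 of Jurkat, and 0.23 without well 10 of A375, the well of few protein coding counts.

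PPIA was just short of 2-fold lower in A375, with log2 ratios of -0.98 and -0.96, and leaving out single cells moved it between -1.07 and -0.88. It reached 2-fold with kit #634413 without any 1 of 9 cells (A375 wells 9, 10, 12, 14 and 16, Jurkat wells 1, 5, 9 and 17), and with kit #634444 without A375 well 13. Without the wells of few protein coding counts, PPIA had -0.80 and -0.88, further from 2-fold with both kits. With kit #634444, 15 of 16 A375 cells were below the lowest Jurkat cell. YWHAZ differed least between the lines with kit #634413, by -0.21, and by -0.39 with kit #634444, where GUSB had -0.38. Without the wells of few protein coding counts, YWHAZ had -0.03 and -0.32, and GUSB had -0.29 with kit #634444. Only 3 A375 cells of each kit were below every Jurkat cell for YWHAZ. SDHA had ratios of -0.64 and -0.65, TBP of -0.65 and -0.82, and GUSB of -0.56 with kit #634413, all smaller than their spread between cells.

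Between the kits, the mean levels of most of the 8 genes differed by less than 2-fold. In A375, 8.09% of 10624 genes differed at least 2-fold between kits and 0 of the 8 did. The largest log2 ratio of kit #634444 over kit #634413 was 0.87 for HPRT1, which passed 2-fold without well 14 or well 18 of kit #634413. Without the wells of few protein coding counts, HPRT1 had 0.66 and the ACTB minor transcripts had the largest, -0.94. In Jurkat, 13.5% of 9920 genes and 1 of the 8 differed at least 2-fold. That gene was ACTB, by -2.28 on its minor transcripts, with -1.04 as the smallest size when 1 cell was left out and -0.30 on the medians. The means of YWHAZ, PPIA, SDHA and GUSB had ratios between 0.02 and 0.32 in both lines, GAPDH had 0.28 and -0.26, and TBP had -0.49 and -0.32. The medians of GUSB went further than its means, by 1.78 in A375 and 1.34 in Jurkat, and those of HPRT1 by 1.52 in A375. By medians, 19.4% of all genes in A375 and 34% in Jurkat were at least 2-fold apart.

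The spread between cells was lower with kit #634444 for most genes. In A375, 87.9% of genes had a lower CV than with kit #634413, and 7 of the 8 did, all but GAPDH. The GAPDH CV with kit #634444 (0.609) was 0.313 without well 20, and 0.273 without its well of few protein coding counts as well. With kit #634413 it was 0.529, and 0.366 without the wells of few protein coding counts. In Jurkat, 87% of genes and 6 of the 8 had a lower CV with kit #634444, all but HPRT1 and GAPDH. Without the wells of few protein coding counts, the A375 shares were 75.0% of genes and 6 of 8. With kits #634413 and #634444, the median totals were 844946 and 755639 in A375 and 926941 and 766736 in Jurkat. The part of depth in these CVs was not tested.

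In Jurkat, GAPDH varied together with several other enzymes of glycolysis, the pathway that splits glucose to pyruvate. Among 2174 genes of at least 50 CPM in every group, the gene most like GAPDH was PGK1, the kinase that takes over its product. The Pearson r over cells of log2(CPM + 1), averaged over the 4 groups, was 0.85 (0.81 to 0.92, n = 16 to 18 cells a group). Without the wells of few protein coding counts, r was 0.13 and 0.78 in A375 and 0.81 and 0.87 in Jurkat, so in A375 with kit #634413 the likeness rested on those wells. In A375 with kit #634444 it was 0.36 without well 20 as well. Of 12 glycolysis genes at this level, 5 had a mean r with GAPDH over 0.5 in the wells of at least 50% protein coding counts, namely PGK1, LDHA (0.63), ALDOA (0.57), TPI1 (0.55) and PKM (0.54). Of the 2173 other genes at this level, 0.460% did, with a median of -0.05. In A375 with kit #634413 alone, r was 0.13 for PGK1, 0.41 for LDHA, -0.10 for ALDOA, -0.05 for TPI1 and 0.11 for PKM. In A375 with kit #634444, only the r of PGK1 was computed without well 20. LDHB (-0.17) and PFKP (-0.06) had negative mean values, and ENO1 had -0.58 in A375 with kit #634413 but 0.91 and 0.88 in Jurkat. PPIA, in the same wells, had an r with GAPDH between -0.20 and 0.18. These cells share library and depth, and each r is a description.

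The A375 cell with the highest GAPDH level with kit #634444, well 20, also had the highest PGK1, 1695 CPM against a median of 154. The remaining glycolysis genes summed to 10570 CPM there, against a median of 3338. In Jurkat with kit #634444, the highest GAPDH cell, well 12, held 1738 CPM of PGK1 against a median of 460, and 16012 CPM of the remaining glycolysis genes against 6850. In each of these 2 groups the cell of highest GAPDH was thus among the 2 highest for the pathway, while in A375 with kit #634413 the highest GAPDH cell had 2431 CPM of the remaining genes, below the median of 3328.

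The glycolysis list had a lower level in A375. Of its 17 genes tested, GAPDH included, 13 with kit #634413 and 12 with kit #634444 were at least 2-fold lower in A375, where 25.7% and 21.4% of all genes tested were. The median log2 ratios of the list were -1.77 and -1.26 beside -0.10 and 0.00 over all genes. Lactate dehydrogenase A (LDHA) had -2.49 and -1.60 and enolase 1 (ENO1) -1.95 and -1.51. The muscle phosphofructokinase PFKM was the 1 gene higher in A375, by 4.37 and 3.16. The list lay above the CV trend for 6 of 16, 13 of 17, 14 of 16 and 14 of 16 genes of at least 10 CPM, where 48.8%, 49.2%, 49.4% and 49.1% of all genes did. In A375 with kit #634444 it was 5 of 16 without well 20.

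**Figure D5:**
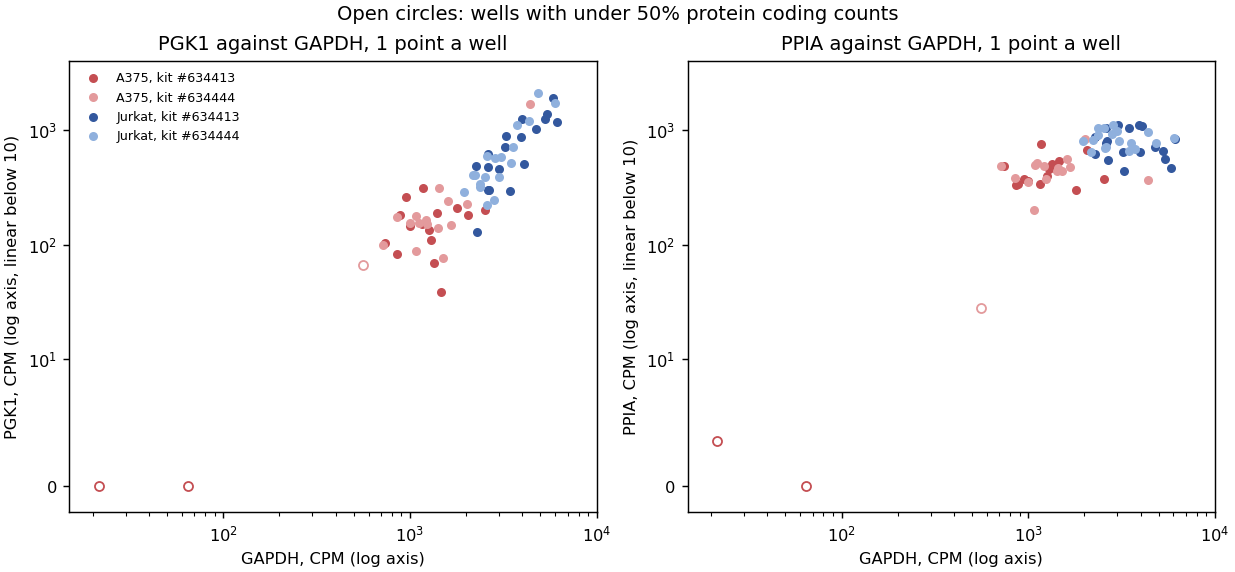
PGK1 (left) and PPIA (right) against GAPDH in every well used, in CPM on log axes (linear below 10 for PGK1 and PPIA), coloured by cell line and kit, with open circles for the 3 wells of few protein coding counts. Jurkat cells with more GAPDH have more PGK1, and 1 A375 cell with kit #634444 (GAPDH 4387, PGK1 1695 CPM) lies among the Jurkat cells, while PPIA stays within 440 to 1114 CPM over the whole GAPDH range of the Jurkat cells.

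The relatives of the other reference genes were described in the same way, beside 51.1% and 46.8% of all genes at least 2-fold apart between the lines with kits #634413 and #634444, and 25.7% and 21.4% lower in A375. Of the cyclophilins, prolyl isomerases like PPIA, 1 and 2 of 8 were at least 2-fold higher and 2 and 1 lower in A375 with kits #634413 and #634444, and PPIA had the lowest CV of the family in both Jurkat groups. Of the YWHA family, 2 of 6 were lower in A375 with each kit, YWHAH by -2.24 and -2.19 and YWHAQ by -1.29 and -1.50. YWHAG was the gene most like YWHAZ (mean r 0.68, and 0.51 without the wells of few protein coding counts). Of the TFIID subunits, to which TBP belongs, 1 and 2 of 14 were higher and 4 and 3 lower. In either direction together, each of these 3 lists had a lower share at least 2-fold apart than all genes.

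Of the purine salvage genes, HPRT1, APRT and PNP were at least 2-fold lower in A375 with both kits, APRT by -2.35 and -1.96 and PNP by -2.06 and -1.55. The adenosine kinase gene ADK had 0.13 and 1.18. Of the succinate dehydrogenase subunits and assembly factors, 2 of 5 and 2 of 6 were higher in A375 and 0 and 1 lower, and SDHB had a mean r of -0.08 with SDHA. Of the lysosomal glycosidases, the class of GUSB, 0 and 2 of 7 were higher in A375 and 0 lower. The gamma-actin gene ACTG1, the second cytoplasmic actin, had ratios of -1.08 and -0.48 and CVs of 0.614, 0.284, 0.385 and 0.433, far below those of the ACTB minor transcripts.

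The gene of most like pattern was less close for the other genes than PGK1 was for GAPDH. The mean r was 0.69 for PPIA and LYPLA1, 0.58 for SDHA and TNKS2, 0.55 for TBP and HSPA5, 0.49 for HPRT1 and RPL36A, 0.48 for GUSB and HMGB1 and 0.45 for ACTB and ZZEF1. In the wells of at least 50% protein coding counts these values were 0.23, 0.44, 0.36, 0.35, 0.45 and 0.38.

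A list of 21 other genes used as references, PGK1 among them, ran from steady to variable genes. Its lowest and highest CVs were 0.416 and 1.12, 0.272 and 1.53, 0.239 and 1.57, and 0.197 and 1.44 in the 4 groups. The ribosomal protein genes RPLP0 and RPL13A had CVs of 0.239 and 0.289 in Jurkat with kit #634413 and 0.197 and 0.214 with kit #634444, and 0.328 and 0.321 in A375 with kit #634444. EMC7 had a CV of 1.57 in Jurkat with kit #634413 and was missing from 7 of 18 cells. The list had counts in every cell for 6, 17, 14 and 17 of 21 genes. Of all genes with a mean of at least 10 CPM, 7.05%, 51.5%, 20.4% and 37.9% did. Of the listed genes, 3 and 2 were at least 2-fold higher and 6 and 7 lower in A375, with median log2 ratios of -0.11 and -0.03. Over all genes tested, 51.1% and 46.8% were at least 2-fold apart with kits #634413 and #634444, and 25.7% and 21.4% were lower in A375.

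Among all 876 genes of at least 100 CPM in every group, PPIA ranked 40th, YWHAZ 76th and GAPDH 306th by the CV averaged over the groups (0.335, 0.352 and 0.452). The lowest was 7SK, a non-coding RNA that restrains transcription elongation, at 0.247, followed by 4 annotated copies of 5.8S ribosomal RNA with identical values (0.267). Their counts are split between identical targets, so they stand for 1 measurement. In the wells of at least 50% protein coding counts, the 5 lowest of 923 genes were 7SK (0.204), the ribosomal protein gene RPS6 (0.206), the actin-severing cofilin gene CFL1 (0.215), the elongation factor gene EEF1A1 (0.227) and RPLP2 (0.230). PPIA ranked 28th, YWHAZ 58th and GAPDH 318th there.

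The counts of the 8 genes were spread over transcripts and copies in different ways. Protein coding transcripts took 98.3% of GAPDH, 97.1% of YWHAZ, 96.7% of TBP and 72.9% of HPRT1 counts. For SDHA, 46.3% was on protein coding transcripts and 46.7% on transcripts with a retained intron, and for GUSB 40.5% and 25.9%. Both primers of an assay were found in 6 of 18 SDHA, 3 of 6 TBP and 2 of 2 HPRT1 transcripts with the same length in GENCODE v44, beside the MANE Select transcripts. No copy of SDHA or HPRT1 held both primers.

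Reads can be shared with near-identical copies, so the counts of genes with such copies are uncertain. The counts assigned to copies do not measure how many reads were shared. Annotated copies held 279% as many counts as GUSB and 40.6% as many as SDHA. GUSBP11, the largest of 21 GUSB copies, held 54.5% and SDHAP4, the largest of 6 SDHA copies, 14.7%. The best aligned stretch between GUSBP11 and GUSB covered 3.64% of the longest GUSBP11 transcript, and further stretches were not counted. The 89 PPIA copies together held 1.5%, with PPIAP22 the largest (99.6% identity), the 65 GAPDH copies 0.296%, with GAPDHP14 the largest, and the 9 YWHAZ copies 0.180%, with YWHAZP4 the largest. The 3 HPRT1 copies held 0.719%, with HPRT1P3 the largest, and 11 ACTB copies held 1.5% of the minor ACTB counts, with ACTBP8 the largest. TBP had 0 annotated copies.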

How the data were processed

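Total RNA of 78 single cells was sequenced, and 1 table per well was used. The authors trimmed the reads with cutadapt and quantified Ensembl v91 transcripts, extended with spike sequences, with Kallisto in stranded mode. Per the submitters' processing notes, kallisto 0.43.1, STAR 2.5.3 and hg38 were used. The authors deposited estimated counts, which are not normalized, and TPM, which Kallisto derives from these counts and effective lengths. The deposited TPM values were summed per gene as they are.

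Transcripts were assigned to genes with GENCODE v44 by identifier. The targets without a match (4356) took 3.53% to 5.90% of the counts of a well, and stayed in the totals. Estimated counts were summed per gene and divided by the total of the well without spikes (CPM). Groups followed the labels. Wells under 200000 counts were left out (9, all A375), and all wells are given as an alternative. Depth was 231540 to 2567265 counts in the wells used. Exact binomial and Poisson intervals cover counting error only. Genes with a mean of at least 10 CPM in 1 of the groups compared were counted, with a call at 2-fold on the ratio of mean CPM + 1. CV trends were lowess fits with a span of 0.2. M used counts + 0.5. No test was made, since each group is 1 sample. Of 3003 pairs of wells, 0 were identical.

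The genes named were the 8, the members of fixed lists, the copy with the most counts of each, the 1 most correlated gene of each, and the 5 genes of lowest mean CV. The 8 genes and the lists were chosen with earlier results of these data known. Within a list, genes were named as examples after their values had been seen. Alternatives were other scalings (without the rDNA unit, protein coding counts only, TMM factors from edgeR 4.0.16, poscounts size factors from DESeq2 1.42.0, both in R 4.3.3, TPM, and no scaling), other wells, protein coding transcripts only, other dropout limits and pseudocounts, and ratios of medians. The 7 genes without ACTB, each well left out in turn, and the CV trend fitted without well 20 of A375 with kit #634444, were added after seeing the data. The procedures were tested on simulated data. Python 3.11.15 was used with numpy 2.4.6, pandas 2.3.3, scipy 1.17.1, statsmodels 0.14.6 and matplotlib 3.10.9.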

Additional observations from a re-analysis of the deposited data

Results flagged for a closer look

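Of the A375 wells left out for a total under 200000 counts, 3 still held more counts on the 8 reference genes than the 3 counts taken as a floor. Well 15 of kit #634413 held 22.9 counts on them among 156660, 11 on YWHAZ and 5.0 on PPIA. Well 1 of kit #634444 held 7.0 counts among 80958, and well 18 held 6.0 among 2373, 5.0 of them on ACTB minor transcripts. The other 6 left-out wells held between 0 and 3.0.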

How the results depend on the processing

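Counts of reference genes past a limit, median CVs and median M values were recomputed under each alternative, and 117 of 132 such values stayed close to the reported ones. The cause of the other 15 was not tested, except where the alternative itself sets it. With protein coding transcripts only, the median CV of the 8 genes in Jurkat with kit #634444 was 0.982 in place of 0.624, and 3 of 8 in place of 0 differed at least 2-fold between kits in A375. With dropout set at under 10 counts, 0, 3 and 3 of 8 genes were present in every cell of A375 with kit #634413 and of Jurkat with kits #634413 and #634444. With all deposited wells, 0 were in A375 with either kit, since the wells added hold few counts. With at least 50% protein coding counts, 4 were in A375 with kit #634413. After drawing 200000 counts, 3 would be expected in Jurkat with kit #634413. Without a pseudocount, in cells with all 8 genes, the median M in A375 with kit #634444 was 1.02 in place of 1.85. Between the lines with kit #634444, 1 of 8 in place of 2 was at least 2-fold apart with TMM factors, with TPM and with a ratio of medians, and 6 with all wells. A ratio of medians called 2 of 8 between kits in A375, and turned the ACTB log2 ratio between the lines with kit #634413 to 0.02. Of single-gene values, 1240 stayed close, 115 moved and 1 reversed.

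Of all genes at least 2-fold apart between kits in A375, 31.7% were lower with kit #634444 on the CPM scale, 54% when scaled to protein coding counts and 43% in TPM. TPM shifted the median of all genes between the lines from -0.10 and 0.00 to 0.05 and 0.14. Levels in TPM were not compared with CPM levels, since the units differ. No paired analysis was possible because each well holds 1 cell, equal well numbers mark no shared source, and no result comes from a test. In a cell of median depth, 3 counts correspond to several CPM, so the lowest levels of TBP, GUSB and HPRT1 are at the limit of detection, and 16 to 18 cells a group leave wide intervals on shares.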
